A study of Mus musculus with 4 samples.

Results

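The sinusoidal endothelial genes are 10 genes known to be expressed in liver sinusoidal endothelial cells: Stab1, Stab2, Lyve1, Kdr, Pecam1, Cdh5, Tek, Eng, Fcgr2b and Oit3. They were found by gene symbol, through the probe sets that carry 1 symbol in the platform's annotation. Of the 10 genes, 9 were measured, by 15 probe sets, among 10923 genes measured by 17209 such probe sets. Pecam1 was not analysed here. The rule that picks them uses gene symbols and no measured value.

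Liver sinusoidal endothelial cells form the fenestrated wall of the hepatic capillaries and clear waste molecules and small immune complexes from the blood through scavenger and Fc receptors. Vascular endothelial growth factor, angiopoietins and bone morphogenetic proteins reach them through the receptors encoded by Kdr, Tek and Eng. After partial hepatectomy these cells are known to supply growth signals to hepatocytes and later to divide themselves as the sinusoids are rebuilt.

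RNA came from livers of male C57BL6/J mice, 6 to 13 weeks old. All mice had received 1 siRNA injection with Invivofectamine 3.0, a lipid carrier, and lost 40% of the liver 3 days later, and the tissue was taken 48 h after that operation. The groups were siControl, given control siRNA, and siOrm, given siRNA against Orm1, which encodes the acute phase protein orosomucoid, with 2 arrays each. Whether 1 mouse or a pool was put on each array is not stated. The siOrm titles, siOrm1 and siOrm2, could also name siRNAs against Orm1 and Orm2, and the source name puts both arrays in 1 group. The carrier delivers siRNA mainly to hepatocytes, and no untreated or unoperated liver was used here.

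Each probe set was given as a log2 signal relative to its own median over the 4 arrays, so a value of 0 is the middle of the 4 arrays and not a low signal. For a single probe set this makes the values of its middle pair of arrays equal in size and opposite in sign. Signal levels are hidden, so expression of these genes as such could not be checked, nor could 1 gene's level be set against another's. The targeted gene, Orm1, differed by -0.23 (SE 0.15) between siOrm and siControl, short of the threshold (limma, adjusted p = 0.994). Its paralogs Orm2 and Orm3 differed by -1.08 (SE 0.34) and -0.91 (SE 0.34). Those differences were -0.71 and -0.39 without siControl replicate 2, and -1.44 and -1.43 without siControl replicate 1. Orm1, Orm2 and Orm3 were all lower in siOrm without overlap, as were 15.3% of all genes. None of them passed in the fit of all 4 arrays, so this gene family is only a weak check of the labels. The arrays were unequal in spread. The standard deviation over all genes was 0.30 in siControl replicate 2, against 0.12 to 0.21 in the other arrays.

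Promoter sequences are shown for Stab1, Eng and Fcgr2b, a scavenger receptor, a growth factor co-receptor and an Fc receptor. Of the 10 genes, 6 were found by symbol in the RefSeq promoter table (GRCm38.p6). The bases shown end just before the gene's outermost annotated start, and run 5′ to 3′ on the gene's strand. They lie at chr14:31168652-31168891 on the minus strand for Stab1, chr2:32646345-32646594 on the plus strand for Eng and chr1:170976072-170976321 on the minus strand for Fcgr2b. Capitals mark GGAAG, the core of sites bound by ETS factors such as Erg and Fli1 of endothelial cells, or its reverse complement CTTCC. The promoters shown are those with matches in the bases before the start: 3 for Stab1, 2 for Eng and 2 for Fcgr2b. Those of Stab2 and Tek held 0 there, and for Kdr there were 0 bases before that start.

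Stab1: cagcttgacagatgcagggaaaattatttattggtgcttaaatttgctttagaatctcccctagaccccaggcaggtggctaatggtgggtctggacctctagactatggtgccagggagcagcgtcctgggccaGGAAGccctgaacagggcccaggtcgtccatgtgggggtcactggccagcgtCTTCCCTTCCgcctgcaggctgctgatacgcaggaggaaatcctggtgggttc

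Eng: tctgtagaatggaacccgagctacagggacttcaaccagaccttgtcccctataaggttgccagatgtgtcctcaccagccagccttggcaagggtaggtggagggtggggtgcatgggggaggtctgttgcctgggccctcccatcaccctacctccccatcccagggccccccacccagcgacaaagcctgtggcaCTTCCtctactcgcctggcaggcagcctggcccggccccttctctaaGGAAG

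Fcgr2b: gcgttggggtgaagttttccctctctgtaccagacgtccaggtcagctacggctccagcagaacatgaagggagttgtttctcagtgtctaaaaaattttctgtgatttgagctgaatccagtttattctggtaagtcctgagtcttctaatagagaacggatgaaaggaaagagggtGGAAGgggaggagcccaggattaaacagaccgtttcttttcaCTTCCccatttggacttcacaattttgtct

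Over the whole window of 300 bases, GGAAG was found on either strand in 5 of the 6 promoters, all but that of Tek, and in 71.4% of 32851 promoters of that length. GATAA, the core of sites bound by GATA factors such as Gata4 of sinusoidal endothelium, was found in 1 of the 6, that of Tek, and in 25.4% of all. A match is a run of letters and not a measured binding site.

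None of the 9 genes passed the test between siOrm and siControl. With limma and Benjamini-Hochberg adjustment over all genes, 0 of 9 were called at an adjusted p under 0.05, and 0% of the 10923 genes were called in either direction. At an unadjusted p under 0.05 there were 0 of 9, where 4.76% of all genes were found. The smallest adjusted p among the 9 was 0.994 (limma). A variance prior that follows the mean value also called 0 of 9, but in this centred table that mean is not a signal level. The differences ran from -0.42 for Lyve1 to 0.08 for Oit3, with 5 below 0 (47.8% of all genes) and 4 above (52.2%), and their median was -0.012, against 0.0084 over all genes. In 0 of 9 did both siOrm arrays lie above both siControl arrays, which 17% of all genes did, and in 0 of 9 did both lie below, which 15.3% did.

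Among the scavenger and clearance receptors, Lyve1 had the largest difference of the 9. Lyve1 encodes a hyaluronan receptor of lymphatic and sinusoidal endothelium, also found on some macrophages. Its siControl values were -0.025 and 0.77, and its siOrm values -0.013 and -0.088. Thus 1 array, siControl replicate 2, was high, and the other 3 lay within a narrow band. The difference was -0.42 (SE 0.27, 95% interval -1.09 to 0.25) and did not pass (limma, adjusted p = 0.994); without siControl replicate 2 it was -0.025. The first of the pair of Lyve1 probe sets reached 1.10 in siControl replicate 2. The other was the only 1 of the 15 without overlap between the groups, with siOrm arrays at -0.089 and -0.11 under siControl arrays at 0.089 and 0.43. That order was seen in 15.8% of all probe sets.

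Stab1 and Stab2 encode the stabilins, large receptors that take up hyaluronan, modified lipoproteins and other ligands. Stab1 was at -0.11 and 0.32 in siControl and at -0.29 and 0.11 in siOrm, so the arrays of the groups alternated. For Stab2, siControl gave -0.26 and 0.25 and siOrm 0.34 and -0.25. Stab2 was the 1 gene of the 9 whose highest array was siOrm replicate 1, the array in which Stab1 was lowest. The differences were -0.20 (SE 0.21) for Stab1 and 0.05 (SE 0.26) for Stab2. Among the 9, Stab2 also had the widest gap between the siOrm arrays, 0.59, and without siOrm replicate 1 its difference was -0.24.

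Fcgr2b encodes the inhibitory Fc gamma receptor that clears small immune complexes in sinusoidal endothelium and that B cells and macrophages carry too. Its 4 probe sets averaged -0.23 and 0.44 in siControl and -0.017 and 0.0083 in siOrm, with the siOrm arrays between the siControl arrays. All 4 probe sets were higher in siControl replicate 2 than in siControl replicate 1. Oit3, which encodes a secreted protein used as a marker of these cells, was at -0.26 and 0.10 in siControl and at -0.063 and 0.063 in siOrm. The differences, -0.11 (SE 0.24) for Fcgr2b and 0.08 (SE 0.17) for Oit3, were smaller than the gaps between the siControl arrays, 0.67 and 0.36.

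The growth factor receptors showed the same order of arrays. Kdr, the main signalling receptor for vascular endothelial growth factor, stood at -0.17 and 0.20 in siControl and at -0.019 and 0.019 in siOrm. Tek, the angiopoietin receptor Tie2, was at -0.34 and 0.24 in siControl and at -0.024 and 0.024 in siOrm. Both siOrm arrays lay between the siControl arrays for either gene. Group differences were -0.01 for Kdr (SE 0.17, 95% interval -0.43 to 0.40) and 0.05 for Tek (SE 0.21, 95% interval -0.48 to 0.58). On the linear scale the interval of Kdr runs from 0.745-fold to 1.32-fold, so these arrays leave a change within those limits possible.

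Eng encodes endoglin, a co-receptor for bone morphogenetic proteins. Its mean was -0.27 and 0.15 in siControl and -0.025 and -0.011 in siOrm, a difference of 0.04 (SE 0.18). The 2 probe sets of Eng disagreed in direction: the first differed by -0.18 (SE 0.17) and the second by 0.25 (SE 0.22). The endothelial cadherin of the cell junctions, encoded by Cdh5, stood at -0.21 and 0.38 in siControl and at 0.062 and -0.10 in siOrm. Here too the siOrm arrays lay between the siControl arrays, and the difference was -0.11 (SE 0.22).

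**Figure D1:**
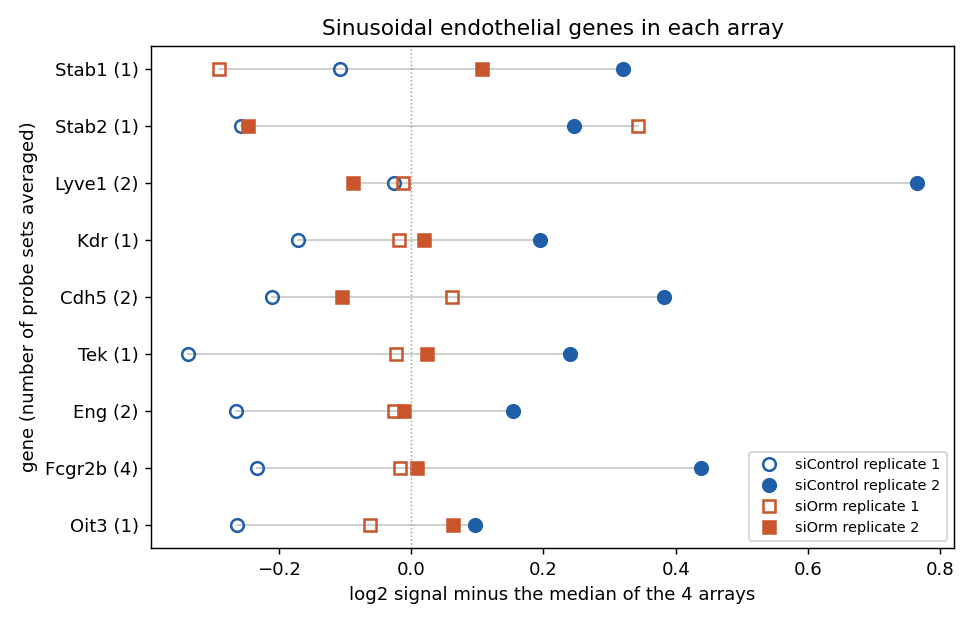
Each row is 1 gene, and the x axis gives its log2 signal minus the median of the 4 arrays; circles are siControl arrays, squares siOrm arrays, open symbols replicate 1 and filled symbols replicate 2. The filled circle, siControl replicate 2, is the rightmost point for 8 of the 9 genes, and the open circle, siControl replicate 1, is the leftmost for 7.

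The siControl arrays stood at opposite ends of the range for most of these genes. Of the 9, 9 were higher in siControl replicate 2 than in siControl replicate 1, as were 42.9% of all genes. Counts over the 4 arrays gave 8 of 9 genes highest in siControl replicate 2 (28.1% of all genes) and 7 of 9 lowest in siControl replicate 1 (20.6%). Both held for 6 of 9, Kdr, Cdh5, Tek, Eng, Fcgr2b and Oit3, and for 9.85% of all genes. The mean over the 9 genes was -0.21 and 0.32 in the siControl arrays and -0.0049 and -0.025 in the siOrm arrays. After quantile normalization, which gives every array the same distribution, the siControl means were -0.22 and 0.20 and the siOrm means 0.016 and -0.060, with 8 of 9 highest in siControl replicate 2 and 6 of 9 lowest in siControl replicate 1. These are counts over genes of the same 4 arrays, given as a description.

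The gap between the siControl arrays exceeded the group difference in 9 of 9 genes, as in 66.9% of all genes. It ran from 0.36 for Oit3 to 0.79 for Lyve1 with a median of 0.50, and the median gap over all genes was 0.20. Between the siOrm arrays the gap was 0.015 for Eng at the lowest and 0.59 for Stab2 at the highest, with a median of 0.075, against 0.13 over all genes. It was smaller than the gap between the siControl arrays in 8 of 9 genes, all but Stab2, as in 62.6% of all genes. The median size of the group difference was 0.083, against 0.11 over all genes.

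For 8 of the 9 genes, all but Lyve1, the sign of the group difference turned on which siControl array was used. Without siControl replicate 1, all 9 differences were below 0 (43.4% of all genes were), with a median of -0.24. In that fit, whose lone control array, siControl replicate 2, is assumed to vary like the siOrm arrays, limma called 229 genes, 183 lower (1.68%) and 46 higher (0.421%), but 0 of the 9. An unadjusted p under 0.05 was given to 3 of the 9, Lyve1, Cdh5 and Fcgr2b, and to 16.2% of all genes. Lyve1 was then nearest the threshold, at -0.82 (limma, adjusted p = 0.0559; over all its alternatives the adjusted p ran from 0.0559 to 1). Without siControl replicate 2, 8 of the 9 differences were above 0 (46.9% of all genes were), all but that of Lyve1, with a median of 0.23. Tek then had the largest difference, 0.34 (limma, adjusted p = 0.785; over all its alternatives from 0.484 to 1), and 0 genes were called.

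**Figure D2:**
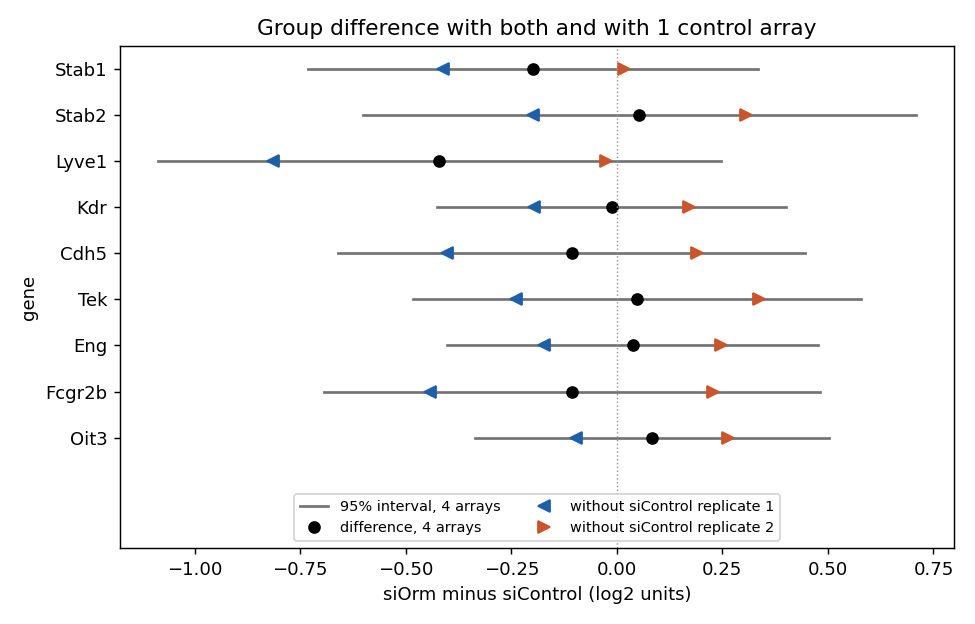
Each row is 1 gene, and the x axis is the siOrm minus siControl difference in log2 units; black points with grey lines are the difference and its 95% interval from all 4 arrays (limma), and triangles are the difference when 1 siControl array is left out. Every interval crosses 0; the left-pointing triangles (without siControl replicate 1) are all below 0, and the right-pointing ones (without siControl replicate 2) are above 0 for 8 of 9 genes.

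Partners of the receptors were read from lists of related genes. Of 9 measured ligands and receptors of vascular endothelial growth factor, 0 were called in either direction and 1, Nrp1, had an unadjusted p under 0.05. Nrp1 encodes neuropilin 1, a co-receptor of the product of Kdr. It stood at 0.37 and 0.23 in siControl and at -0.25 and -0.32 in siOrm, with no overlap between the groups and small gaps within them. The difference was -0.59 (SE 0.13, 95% interval -0.92 to -0.26) and did not pass over all genes (limma, adjusted p = 0.994); leaving out single arrays gave values from -0.65 to -0.52. The siOrm arrays lay below without overlap in 5 of the 9 genes (15.3% of all genes) and above in 0. The other differences were small: Vegfa, the main ligand, differed by -0.11 (SE 0.13), the decoy receptor gene Flt1 by -0.13 (SE 0.14) and the lymphatic ligand gene Vegfc by -0.07 (SE 0.14). The 3 probe sets of Flt1 were unequal: 1 differed by -0.40, and taking their median instead of their mean gave -0.013. The median of the list was -0.07.

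The 5 measured partners of Tek gave 0 calls and a median difference of -0.025. Angpt2, the context-dependent ligand, differed by 0.11 (SE 0.14) and Tie1, the related receptor, by -0.07 (SE 0.14). Ptprb encodes the phosphatase that dampens Tek signalling. It differed by -0.28 (SE 0.29), and at 0.53 it was highest in siControl replicate 2, like Tek.

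Of 18 genes of endoglin and bone morphogenetic protein signalling, 0 were called, and the median difference was -0.095. In siOrm, 3 lay lower without overlap (15.3% of all genes) and 0 higher (17%). The circulating ligands of endoglin and its partner receptor, encoded by Gdf2 and Bmp10, differed by 0.05 (SE 0.15) and 0.0062 (SE 0.13), and the partner receptor gene Acvrl1 by -0.07 (SE 0.13). Bmpr2, a type II receptor gene, differed by -0.19 (SE 0.18). Smad1, a signal transducer of this pathway, was at 0.06 and 0.31 in siControl and at -0.55 and -0.06 in siOrm, a difference of -0.49 (SE 0.21), or of -0.24 without siOrm replicate 1. None of these passed the test.

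The Id genes, transcriptional targets of this pathway that are also induced by other signals, spread far more widely than the endothelial genes. Id1 had values of 2.45 and -0.0054 in siControl and at -1.62 and 0.0054 in siOrm. Id3 was at 1.24 and 0.027 in siControl and at -2.09 and -0.027 in siOrm. In both, siControl replicate 1 was high and siOrm replicate 1 low, with the second arrays of the groups nearly equal. The differences, -2.03 for Id1 (SE 0.89) and -1.70 for Id3 (SE 0.73), did not pass (limma, adjusted p = 0.994). Without siControl replicate 1 that of Id1 was -0.80, and without siOrm replicate 1 that of Id3 was -0.66. For Id2 the difference was -0.52 (SE 0.36); leaving out siControl replicate 1, where it reached 0.91, gave -0.0087. Thus the Id genes were highest in the siControl array in which most of the 9 endothelial genes were lowest.

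**Figure D3:**
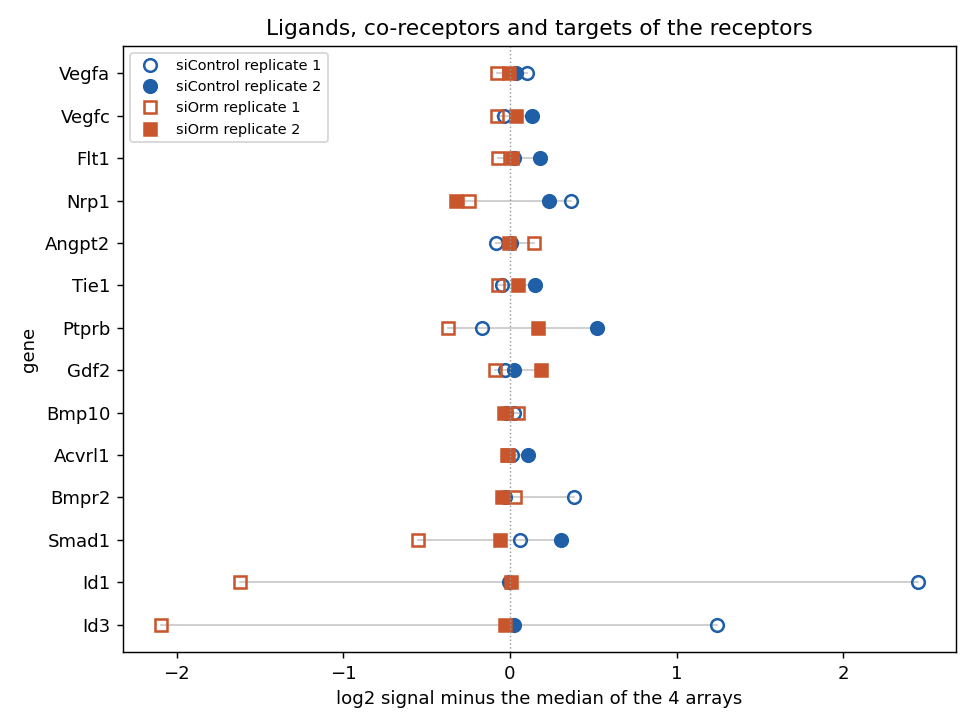
Each row is 1 ligand, co-receptor, signal transducer or target gene, and the x axis gives its log2 signal minus the median of the 4 arrays, with circles for siControl, squares for siOrm, open symbols for replicate 1 and filled symbols for replicate 2. Nrp1 has both circles right of both squares with small gaps, while Id1 and Id3 are spread by siControl replicate 1 at 2.45 and 1.24 and by siOrm replicate 1 at -1.62 and -2.09.

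Other endothelial genes were compared with the 9. Of 20 other sinusoidal endothelial genes, 0 were called, and the median difference was -0.096. Without overlap, 1 lay higher (17% of all genes) and 3 lower (15.3%). In 13 of the 20 the highest array was siControl replicate 2, and in 7 the lowest was siControl replicate 1. Cd36, a fatty acid and scavenger receptor gene that hepatocytes and macrophages also express, was lowest in siControl replicate 1, at -1.16, with the other arrays from -0.02 to 0.30. Its difference of 0.71 (SE 0.39) was 0.12 without that array. Nid1, a basement membrane gene, was at 1.20 in siControl replicate 2, and its difference of -0.68 (SE 0.40) was -0.06 without that array.

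Among 31 genes of endothelium in general, outside the 9, 0 were called, and the median difference was 0.025. Without overlap, 3 lay higher (17% of all genes) and 4 lower (15.3%). The highest array was siControl replicate 2 in 17 of the 31. Vwf, which encodes von Willebrand factor and is low in normal sinusoidal cells but present in larger vessels, was at -0.15 and -0.20 in siControl and at 0.15 and 0.25 in siOrm. Nos3, which encodes endothelial nitric oxide synthase, was at 0.09 and 0.35 in siControl and at -0.32 and -0.09 in siOrm. Neither gene's arrays overlapped between the groups, in opposite directions. The differences were 0.37 for Vwf (SE 0.13, unadjusted p = 0.0293) and -0.42 for Nos3 (SE 0.16, unadjusted p = 0.0435), and neither passed in limma after adjustment (adjusted p = 0.994). Sox18, an endothelial transcription factor gene, differed by -0.30 (SE 0.13), also without passing.

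Of 11 genes of endothelial Notch and ephrin signalling, 0 were called, 1 lay lower without overlap (15.3% of all genes), and the median difference was 0.03. Of 8 genes of the growth signals that endothelium is known to send in liver regeneration, 0 were called, with a median of -0.0057. Without overlap, 1 of the 8 lay higher (17% of all genes) and 1 lower (15.3%). Wnt2, which encodes a Wnt ligand made by sinusoidal endothelium, stood at -0.27 and -0.07 in siControl and at 0.07 and 0.12 in siOrm, a difference of 0.26 (SE 0.14) that did not pass.

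Markers of other liver cells moved between the arrays too. In bulk tissue, fewer cells of a type and less RNA per cell cannot be told apart. Of 15 Kupffer cell and macrophage markers, 14 were highest in siControl replicate 2 and 11 lowest in siControl replicate 1, where all genes gave 28.1% and 20.6%. Their mean was -0.28 and 0.80 in siControl and -0.026 and -0.065 in siOrm, an array order like that of the 9 endothelial genes with a wider range. Marco, a macrophage scavenger receptor gene, was at 0.25 and 1.97 in siControl and at -0.25 and -0.38 in siOrm, and Vsig4 and Cd163 stood at 1.06 and 0.99 in siControl replicate 2. Without that array the difference of Marco went from -1.43 (SE 0.53) to -0.57, that of Vsig4 from -0.63 (SE 0.40) to -0.05 and that of Cd163 from -0.79 (SE 0.43) to -0.25. Of the 15, 0 were called, and without overlap 1, Adgre1, lay higher (17% of all genes) and 1, Marco, lower (15.3%). Adgre1 differed by 0.27 (SE 0.16). Fcna, C1qb, Csf1r, Msr1 and C1qa also had differences above 0, at 0.23, 0.09, 0.06, 0.02 and 0.01. The median difference of the 15 was -0.17. Macrophages also express Lyve1, Stab1 and Fcgr2b, and the part of macrophage RNA in the array order of these genes was not tested.

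The 11 measured stellate cell markers had means of -0.15 and 0.29 in siControl and of -0.066 and 0.090 in siOrm, with 6 highest in siControl replicate 2 and 7 lowest in siControl replicate 1. The means of the 9 hepatocyte markers were close together, at 0.045 and -0.058 for siControl and at -0.070 and 0.030 for siOrm, though Tat, a tyrosine-degrading enzyme gene, stood at -0.78 in siOrm replicate 1. The 4 cholangiocyte markers had medians of -0.020 and -0.035 in siControl and of -0.027 and 0.22 in siOrm. As means they gave -0.077 and 0.14 in siControl and -0.00013 and 0.21 in siOrm. Of the 4, 1, Sox9 at 0.74, was highest in siControl replicate 2. For the 6 B cell markers, which bear on Fcgr2b, siControl gave 0.15 and -0.17 and siOrm 0.052 and -0.0014 as means, and 0 of 6 were highest in siControl replicate 2. The 6 platelet markers gave -0.12 and -0.064 in siControl and 0.014 and 0.085 in siOrm, with 0 of 6 highest in that array. The 8 neutrophil markers had medians of 0.10 and 0.031 in siControl and of -0.094 and -0.013 in siOrm; 3 of 8 were highest in siControl replicate 2, among them S100a8 at 2.75 and S100a9 at 1.95. No gene of the lists above was called in the main limma fit of all 4 arrays. An unadjusted p under 0.05 was given to Nrp1, Vwf, Nos3, Marco and the stellate cell marker Ecm1, which differed by 0.32 (SE 0.13). Since signal levels are hidden, it cannot be said which of these markers were expressed.

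**Figure D4:**
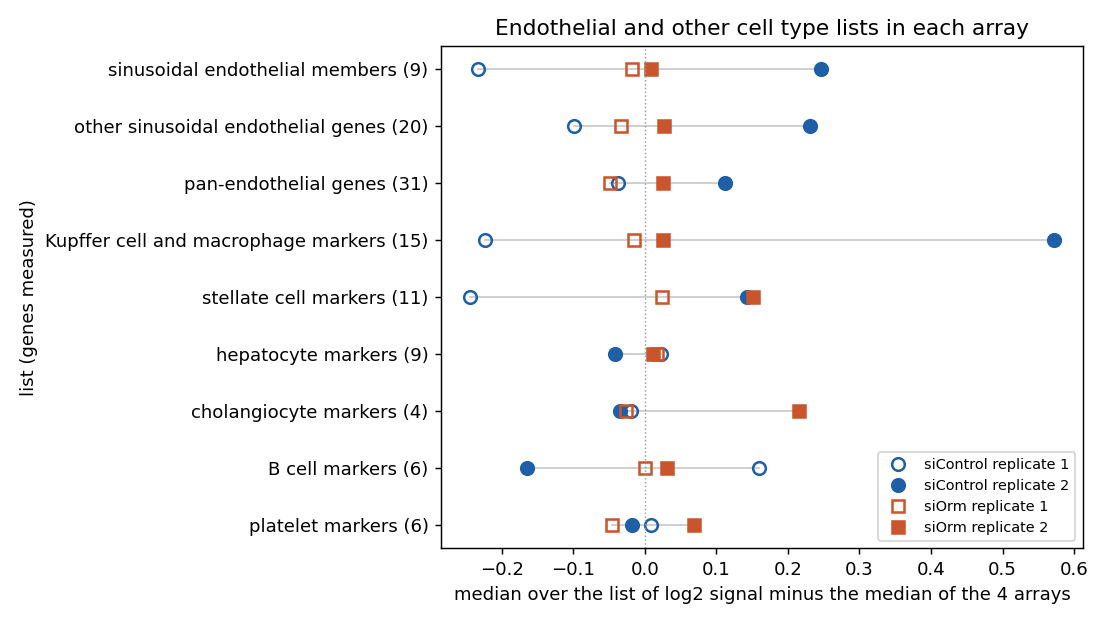
Each row is a gene list with its number of measured genes, and the x axis is the median over its genes of log2 signal minus the median of the 4 arrays; circles are siControl, squares siOrm, open symbols replicate 1 and filled symbols replicate 2. The 9 sinusoidal endothelial genes run from -0.23 in siControl replicate 1 to 0.25 in siControl replicate 2, and the macrophage markers from -0.22 to 0.57 in the same arrays, with both siOrm arrays near 0.

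The genes most alike over the 4 arrays were read from the root mean square difference of their values. Each of the 9 was set against 105 genes of the endothelial, receptor partner, Notch and ephrin, and growth signal lists, the other members included. Markers of other liver cells were not among them, so a nearest gene of another cell type could not be found. The macrophage marker gene Msr1 stood at -0.32 and 0.29 in siControl and at -0.015 and 0.025 in siOrm, close to Tek. Kdr, Tek and Oit3 were each nearest to Eng, at 0.054, 0.059 and 0.050. Eng itself was nearest to Ramp2, a receptor component gene of endothelium, at 0.033, and Stab1 to Gpr182, a sinusoidal endothelial receptor gene, at 0.028. Cdh5 and Stab2 were both nearest to Tgfbr2, a transforming growth factor receptor gene, at 0.055 and 0.12. Lyve1 was nearest to Cd93, at 0.088, and Fcgr2b to the transcription factor gene Ets1, at 0.070. Over 4 arrays such likeness is a description only. Lyve1 stood farthest from the 105 genes as a whole, with a median root mean square difference of 0.37, and Kdr nearest, with 0.17.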

How the data were processed

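Liver RNA of 4 mouse liver samples was measured on single-colour arrays, named in the series text as Affymetrix Mouse Genome 430A 2.0; the labels' protocols name a labelling kit of another maker and cultured cells, which leaves the laboratory steps unclear. The authors deposited 18852 probe sets as log2 signals with the median of the 4 arrays subtracted (largest row median 4.8e-07). The base is not stated, and 2 was taken; natural logarithms would make each log2 difference 1.44 times larger. Software, normalization between arrays and filters stay unknown (not given in the sources used here).

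Of the probe sets, 17209 had 1 symbol in the platform annotation, 564 had several, 1044 were not listed and 35 were controls; only the first were used. A gene's value was the mean of its probe sets. Differences are siOrm minus siControl, tested with limma 3.58.1 under R 4.3.3, two-sided (constant variance prior, 3.6 prior and 2 residual degrees of freedom), with Benjamini-Hochberg adjustment over 10923 genes and a threshold of 0.05. The test was checked on simulated data with the same spread in every array and independent genes. That check does not cover arrays of unequal spread such as these. With 2 arrays against 2, p-values reflect just the spread among these arrays, possibly a technical one, and an exact permutation test cannot go below 0.333. Replicate numbers are those of the titles. The alternatives were a variance prior that follows the mean, quantile normalization, array medians subtracted, the median of probe sets, probe sets without a mark of shared sequence, single probe sets, a replicate block, and leaving out each array.

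The genes and lists were chosen with earlier results of these data known. Genes to be named were the members, the orosomucoid genes, direct partners of the receptors and the up to 4 smallest p-values of each list. The nearest gene to each member in the endothelial and partner lists was also to be named. Not all are described. Promoter sequences and gene bounds are from RefSeq (GRCm38.p6), matched by symbol.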

Additional observations from a re-analysis of the deposited data

How the results depend on the processing

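The count of members called was 0 under each alternative run. With probe sets without a mark of shared sequence, just 6 of the 9 members were measured. Stab1, Eng and Fcgr2b had no such probe set. With a variance prior that follows the mean value, limma called 11 genes, 0 of them members, instead of 0. In a centred table that mean is not a signal level, so these calls carry little weight. The constant prior found 520 genes at an unadjusted p under 0.05. Quantile normalization turned the difference of Kdr to 0.029 and that of Bmp10 to -0.0087. Leaving out 1 array at a time gave from 0 genes called to 229. The number of members with both groups apart went from 0 to 8 for siOrm lower, with 8 reached without siControl replicate 1. For siOrm higher it went from 0 to 7, with 7 reached without siControl replicate 2. The shares of all genes without overlap given above are from 2 arrays against 2. None was computed for fits that leave 1 array in a group, so these counts are a description only. The median difference of the members went from -0.24 to 0.23. In the same fits Stab1 ran from -0.41 to 0.016, Stab2 from -0.24 to 0.35, Kdr from -0.20 to 0.17, Cdh5 from -0.40 to 0.19, Tek from -0.24 to 0.34, Eng from -0.17 to 0.25, Fcgr2b from -0.44 to 0.23 and Oit3 from -0.096 to 0.26. Lyve1 stayed below 0, from -0.82 to -0.025. Of the partners, Vegfc ran from -0.15 to 0.017, Tie1 from -0.17 to 0.034, Ptprb from -0.63 to 0.069, Bmpr2 from -0.39 to 0.021, Gdf2 from -0.088 to 0.19 and Bmp10 from -0.036 to 0.048. The differences of Nid1, Marco, Orm3, S100a8 and S100a9 were -1.30, -2.29, -1.43, -3.13 and -2.07 without siControl replicate 1. Leaving out siControl replicate 2 gave -0.06, -0.57, -0.39, -0.54 and -0.23 for the same genes. The cause was not tested.

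With the replicate number as a block (replicate block), 0 genes and 0 members were called, and the smallest adjusted p among the members was 0.829 (limma). The labels do not say that a number marks a pairing, and with 2 pairs the correlation over genes of same-numbered arrays' deviations was 0.132. Signal over background cannot be read from a centred table, so dim probe sets could not be set apart.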
